A study of Homo sapiens with 60 samples.

Results

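HT29 cells, an established human colorectal adenocarcinoma line, were treated with a water extract of Paeoniae Radix (below: Paeoniae), the dried root of peony, at 3 doses. The libraries were those that the sample labels give to this extract at 500, 100 or 20 µg/mL, with 2 at each dose, 6 of the 60 libraries of the series. Messenger RNA was sequenced after 24 h of treatment. The other 54 libraries came from the same line under 5 further water extracts at the same doses, the phosphoinositide 3-kinase inhibitors wortmannin and LY294002 at 10 µM, or vehicle, with 3 libraries in each group. The sample labels give the vehicle as 0.1% DMSO and the text of the series as 2%, which was not resolved here. Those extracts came from Poria cocos (Poria), Atractylodis Rhizoma (Atractylodis), Glycyrrhizae Radix or licorice root (Glycyrrhizae), Panax ginseng (Ginseng) and Angelicae Gigantis Radix (Angelicae). The question was which genes rose or fell with dose within the Paeoniae series. Vehicle libraries entered an alternative fit on all 60 libraries, where they served the estimate of the spread. Their values are printed as levels and were set against Paeoniae in no test. The reason is that the vehicle sample codes begin with A1 and all 6 of Paeoniae with 4. The titles put all 60 libraries in a batch A, and what the start of the code stands for is not stated, so treatment and code cannot be told apart there. Nothing in the labels tells whether libraries of a dose came from different cultures. The p-values therefore measure a spread between libraries of the same treatment and dose, which may be technical. In the main fit that spread was estimated over 51 extract libraries, 45 of them from the other extracts.

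As background, peony root is rich in monoterpene glycosides and in tannins. NRF2 is a transcription factor that is held at low levels by KEAP1 and that, once released, drives genes for detoxifying enzymes, glutathione and thioredoxin metabolism, and the supply of NADPH. The aryl hydrocarbon receptor is a ligand-activated factor that drives a battery of xenobiotic-metabolising enzymes and shares several targets, among them NQO1, with NRF2. Both systems are active in gut epithelium, which is exposed to compounds from food and plants.

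The 6 libraries held 24469731 to 35477712 expected counts each, within the range of 20431980 to 35477712 over the whole series. Genes encoded in mitochondria took 7.15% to 9.16% of the counts, and the lowest and highest shares were those of a 100 and a 20 µg/mL library. Libraries of the same dose differed by a median of 0.0777 to 0.0932 log2 units per gene (3 pairs, 10658 genes with a mean of at least 5 CPM, the counts scaled to a common library total). Libraries of different doses differed by 0.0558 to 0.0891 (12 pairs), so that over all genes the doses lay no further apart than replicates did. Of 14 markers of colorectal epithelium, 13 had a mean of at least 1 CPM over the 6 libraries, and their sum stayed between 12484 and 12728 CPM at every dose. COL1A2 and PDGFRA of fibroblasts, CD3D and MS4A1 of lymphocytes, KDR of endothelium and SCGB1A1 of airway epithelium were at 0 in all 6 libraries. Other members of the same lists were detected. Means were 1.33 CPM for COL1A1 and 0.744 CPM for LUM (fibroblasts), and 1.63 CPM for PECAM1 and 0.710 CPM for TEK (endothelium). CD68, CD14 and ITGAM (leukocytes) had 6.38, 3.53 and 1.63 CPM, APOH (hepatocytes) 20.8 CPM and NAPSA (lung) 0.755 CPM. LYZ (mean 1402 CPM) and SERPINA1 (406 CPM), which the marker lists of leukocytes and hepatocytes hold, were high in this line at every dose, while PTPRC and ALB had means of 0.0273 and 0.0321 CPM.

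Across the Paeoniae doses, 4 genes rose and 0 fell among 16649 tested (0.024% called). The slope is the change in log2 level per 5-fold step in dose, tested with edgeR's quasi-likelihood test, and a gene was called at a Benjamini-Hochberg adjusted p under 0.05. At an unadjusted p under 0.05 there were 602 genes, 297 higher with dose (1.78%) and 305 lower (1.83%), so the uncalled genes were split about evenly. Both libraries at 500 µg/mL lay above both at 20 µg/mL for 2181 genes (13.1%) and below them for 2203 genes (13.2%). The median standard error (SE) of a slope was 0.0535, and 0.0387 for the 10658 genes with a mean of at least 5 CPM. For 92.7% of those 10658 genes, the 95% interval of the slope lay wholly between -0.2 and 0.2. With a mean for each dose in place of the straight line, 6 slopes were called: the same 4 higher, and 2 near-identical long non-coding RNAs of chromosome 21 lower. The DESeq2 Wald test on the straight line called 9 genes, among them these 6, and the 2 from chromosome 21 are described below.

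The 4 genes encode enzymes that reduce or oxidise reactive carbonyls and quinones. ALDH3A1 (ENSG00000108602, GRCh38 chr17:19737984-19748943), an aldehyde dehydrogenase that oxidises aromatic and medium-chain aldehydes, measured 28.3 and 29.7 CPM at 20 µg/mL, 30.3 and 29.4 CPM at 100 µg/mL, and 43.6 and 41.2 CPM at 500 µg/mL. The low and middle doses overlapped, and the top dose stood above both. Its slope was 0.28 ± 0.04 (SE) with an adjusted p of 0.000169, and its mean at 500 µg/mL was 1.46 times that at 20 µg/mL. Vehicle libraries measured 28.8, 27.7 and 29.2 CPM, inside or next to the range of the 2 lower doses.

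AKR1B10 (ENSG00000198074, chr7:134527592-134541408), an aldo-keto reductase that reduces aldehydes and retinal, measured 107 and 99.8 CPM at 20 µg/mL, 116 and 107 CPM at 100 µg/mL, and 138 and 143 CPM at 500 µg/mL. Again the top dose lay above all 4 other libraries, and the lower doses overlapped. The slope was 0.22 ± 0.03 with an adjusted p of 0.000516, a ratio of 1.35 between the top and low doses. Vehicle was at 102, 93.5 and 92.8 CPM.

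AKR1C2 (ENSG00000151632, chr10:4987400-5018031), which reduces ketosteroids and other ketones, had the steepest slope of the 4. It measured 13.1 and 12.2 CPM at 20 µg/mL, 14.4 and 14.5 CPM at 100 µg/mL, and 22.5 and 20.3 CPM at 500 µg/mL. Here the 3 doses did not overlap. The slope was 0.38 ± 0.07 with an adjusted p of 0.00949, and the top dose held 1.69 times the level of the low dose. Vehicle was between 11.4 and 12.2 CPM. AKR1C2 is close in sequence to its neighbours: of its 6605 distinct stretches of 100 bases in GENCODE 29 transcripts, 22.1% also occur in AKR1C1 and 1.09% in AKR1C3, so the division of reads between AKR1C1 and AKR1C2 is uncertain. Summed over AKR1C1, AKR1C2 and AKR1C3, which avoids that division, the level was 87.0 and 67.7 CPM at 20 µg/mL, 84.6 and 86.7 CPM at 100 µg/mL, and 113 and 113 CPM at 500 µg/mL. The summed level was highest in both libraries of the top dose.

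NQO1 (ENSG00000181019, chr16:69706996-69726951), a quinone reductase widely used as a readout of NRF2, measured 527 and 469 CPM at 20 µg/mL, 514 and 511 CPM at 100 µg/mL, and 616 and 622 CPM at 500 µg/mL. The lower doses overlapped, with the 20 µg/mL pair spread widest. The slope was 0.16 ± 0.03 with an adjusted p of 0.0180, and the ratio of top to low dose was 1.24. Vehicle was at 501, 471 and 431 CPM. No stretch of 100 bases of NQO1 or ALDH3A1 transcripts occurs in another gene.

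**Figure D1:**
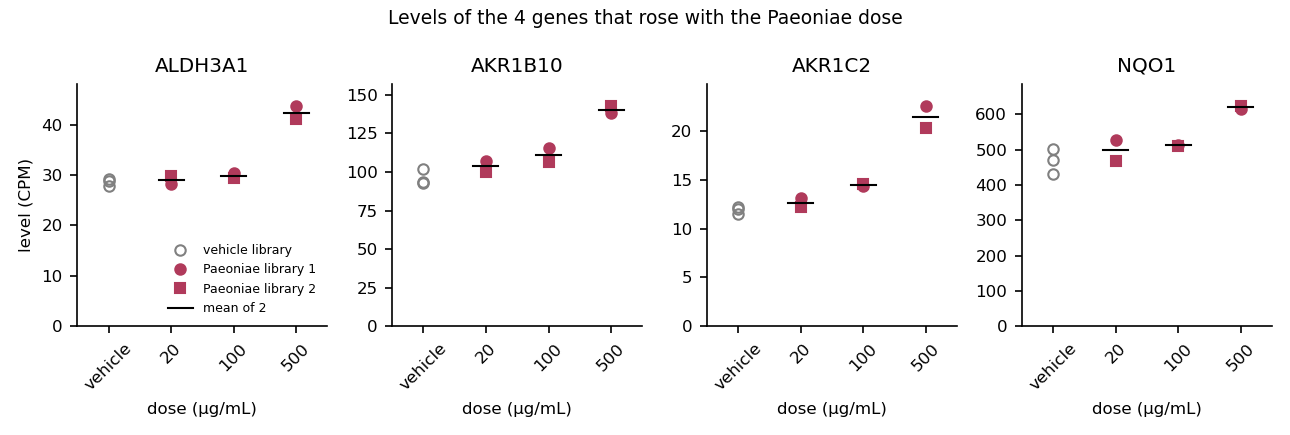
Levels of ALDH3A1, AKR1B10, AKR1C2 and NQO1 (CPM, vertical axes from 0) in each of the 6 Paeoniae libraries by dose (circles, library 1; squares, library 2; bars, mean of 2) and in the 3 vehicle libraries (open circles). For each gene both libraries at 500 µg/mL lie above the other 4 Paeoniae libraries and the vehicle libraries.

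The calls rested on few libraries. With library 1 at 500 µg/mL left out, 0 genes were called (758 at an unadjusted p under 0.05). Without library 2 at 500 µg/mL, ALDH3A1 alone was called, and without library 2 at 20 µg/mL, ALDH3A1 and AKR1B10. All 4 kept their call when either library at 100 µg/mL or library 1 at 20 µg/mL was left out. Over the 6 omissions, the slope ran from 0.23 to 0.32 for ALDH3A1, from 0.19 to 0.26 for AKR1B10, from 0.32 to 0.43 for AKR1C2 and from 0.14 to 0.21 for NQO1. An omission leaves a dose with a single library, which is then assumed to vary like the other groups. Fitted on the 6 libraries alone, with 4 residual degrees of freedom, none of the 4 was called (ALDH3A1 at an adjusted p of 0.35, AKR1B10 at 0.196, AKR1C2 at 0.0739, NQO1 at 1.0), while their slopes were 0.28, 0.22, 0.38 and 0.16 as before. With all 60 libraries sharing the estimate of the spread, NQO1 lost its call (adjusted p 0.0613) and the other 3 kept theirs.

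By the estimates, most of the rise of the 4 genes lay in the upper step. Between 100 and 20 µg/mL, 0 genes were called by edgeR (495 at an unadjusted p under 0.05) and 0 by DESeq2. Between 500 and 100 µg/mL, 4 genes were called (0.024% of those tested): ALDH3A1 and AKR1B10 rose, by 0.51 ± 0.07 and 0.34 ± 0.06 log2 units, and 2 long non-coding RNAs fell, described below. From 20 to 100 µg/mL the differences of ALDH3A1 and AKR1B10 were 0.04 ± 0.07 and 0.10 ± 0.06, those of AKR1C2 and NQO1 0.19 ± 0.14 and 0.04 ± 0.06. From 100 to 500 µg/mL, AKR1C2 differed by 0.57 ± 0.13 and NQO1 by 0.27 ± 0.06, with adjusted p of 0.301 and 0.0876. ALDH3A1 kept its call in this step whichever Paeoniae library was left out, whereas AKR1B10 lost it without either library at 100 µg/mL or either at 500 µg/mL (adjusted p from 0.0718 to 1.0). On the 6 libraries alone, neither ALDH3A1 nor AKR1B10 was called in this step, and the DESeq2 Wald test called ALDH3A1, AKR1B10 and NQO1. Curvature, which asks whether the 100 µg/mL level lies off the straight line in log dose, was called for 0 genes by edgeR (503 at an unadjusted p under 0.05) and for 0 by DESeq2. A difference between the upper and the lower step was therefore not detectable with these libraries for any gene, ALDH3A1 (curvature 0.47) included. Leaving out library 1 or library 2 at 100 µg/mL gave 1 called curvature, in a different gene each time and in none of the 4.

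Since fewer than 6 genes were called, further genes among the 10 with the smallest p are given as values. UGT1A6 and UGT1A10 attach glucuronic acid to phenols and other small molecules. UGT1A6 (chr2:233691607-233773300) measured 48.3 and 46.2 CPM at 20 µg/mL, 53.8 and 52.6 CPM at 100 µg/mL, and 57.6 and 64.4 CPM at 500 µg/mL, without overlap between doses (slope 0.18 ± 0.04, adjusted p 0.0584). UGT1A10 measured 369 and 368, then 392 and 395, then 412 and 427 CPM, also in order (slope 0.09 ± 0.02, adjusted p 0.0811). The genes of this locus share their last exons: 71.6% of the stretches of 100 bases of UGT1A10 and 38.7% of those of UGT1A6 occur in other genes, so both values are uncertain. Their sum was 418 and 414 CPM, 445 and 447 CPM, and 470 and 491 CPM at the 3 doses, again in order of dose. The sum stays uncertain too, because it leaves out other genes of the locus: 69.6% of the stretches of UGT1A10 occur in UGT1A1. SLC7A11, the cystine importer that feeds glutathione synthesis, measured 160.1 and 130.2 CPM, 167 and 154 CPM, and 188 and 187 CPM (slope 0.18 ± 0.04, adjusted p 0.252). GUSBP2, a transcribed pseudogene, lay at 0.606 and 0.403 CPM, 0.75 and 0.737 CPM, and 1.34 and 1.01 CPM, near the lower limit of the genes tested (slope 0.60 ± 0.15, adjusted p 0.315). Its vehicle libraries measured 1.28, 0.735 and 0.970 CPM. SLC30A1, the zinc exporter of the plasma membrane, was the member of these 10 with a negative slope and is given with the zinc genes below. UGT1A6 passed the threshold with DESeq2 size factors (adjusted p 0.0434), and UGT1A6 and UGT1A10 passed it with the DESeq2 Wald test. Neither passed it in edgeR with all 60 libraries sharing the estimate of the spread (adjusted p 0.368 for UGT1A6 and 0.351 for UGT1A10). On the 6 Paeoniae libraries alone, both also stayed uncalled (UGT1A6 at an adjusted p of 0.35).

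All 25 genes of the NRF2 list had a slope above 0, with a median of 0.11 against -0.0001 over all 16649 genes. AKR1B10, AKR1C2 and NQO1 were called, 14 of 25 had an unadjusted p under 0.05 in the upward direction (1.78% of all genes did), and in 19 of 25 both libraries at 500 µg/mL lay above both at 20 µg/mL (13.1% of all genes). The values below did not pass the adjusted threshold. Among the aldo-keto reductases, AKR1C1 had a slope of 0.24 ± 0.06 and AKR1C3 of 0.25 ± 0.07, and AKR1C3 measured 53.7 and 39.1 CPM at 20 µg/mL and 64.2 and 67.8 CPM at 500 µg/mL. Among the enzymes that supply NADPH, ME1 (malic enzyme) had a slope of 0.09 ± 0.02 and PGD of 0.04 ± 0.02. TKT and TALDO1, enzymes of the pentose phosphate pathway, had slopes of 0.08 ± 0.03 and 0.06 ± 0.02. In glutathione synthesis, the 2 subunits of glutamate-cysteine ligase, GCLC and GCLM, had slopes of 0.13 ± 0.07 and 0.11 ± 0.04. GCLC was at 107 and 96.3 CPM at 20 µg/mL and at 134 and 109 CPM at 500 µg/mL, so its top dose was split more widely than the gap between doses. Thioredoxin, TXN, had a slope of 0.11 ± 0.03 and its reductase TXNRD1 0.12 ± 0.06.

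The same list holds genes of iron handling. FTL, the light chain of ferritin, measured 2254 and 2328 CPM at 20 µg/mL, 2606 and 2215 CPM at 100 µg/mL, and 2926 and 2823 CPM at 500 µg/mL (slope 0.16 ± 0.05). FTH1, the heavy chain, measured 4867 and 5148 CPM, 5224 and 4708 CPM, and 6103 and 5537 CPM (slope 0.11 ± 0.03). Both libraries of the top dose were above both of the low dose for each chain, with adjusted p of 0.758 and 1.0. The vehicle libraries were at 2647, 2588 and 2631 CPM for FTL, between the low and top doses. For FTH1 the vehicle libraries were at 5587, 5340 and 5694 CPM. These lay above every library at 20 and 100 µg/mL and on both sides of the top-dose library at 5537 CPM. HMOX1, which opens the haem ring, had a slope of 0.12 ± 0.07. The smallest slopes of the list were those of SRXN1 (0.02 ± 0.05), ABCC3 (0.03 ± 0.04) and PRDX1 (0.04 ± 0.06). The median of the list stayed between 0.0827 and 0.137 when any of the 6 libraries was left out, with 24 of 25 slopes above 0 without library 1 at 500 µg/mL and 23 without library 2 at 20 µg/mL.

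**Figure D2:**
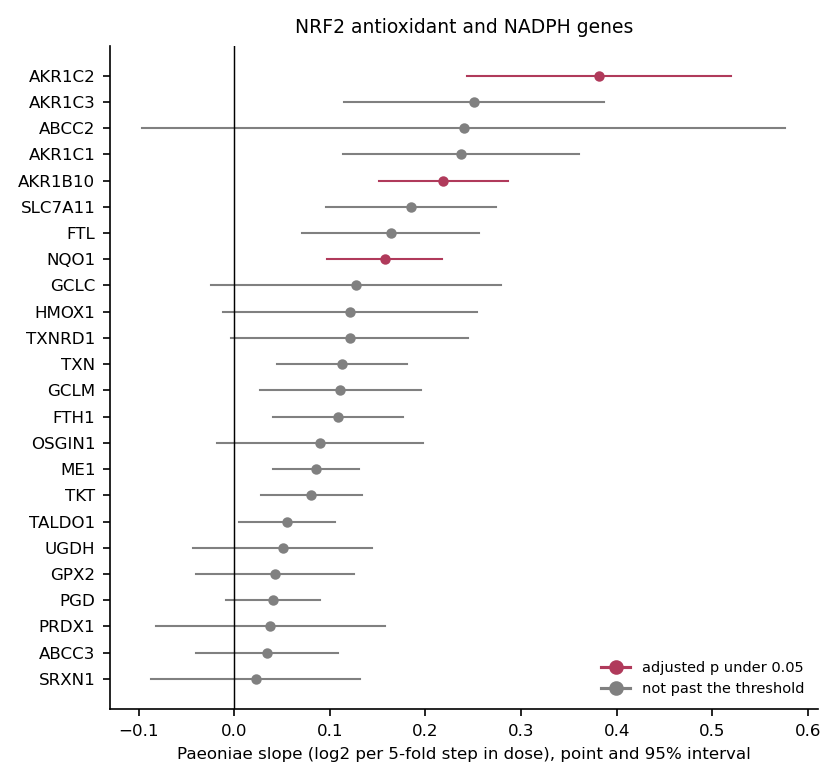
Slope of 24 of the 25 NRF2 list genes over the Paeoniae doses (horizontal axis, log2 per 5-fold step in dose; points, estimate; lines, 95% interval), in order of the estimate. All 24 points lie above 0, from 0.02 for SRXN1 to 0.38 for AKR1C2, and the 3 called genes are in red.

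Targets of the aryl hydrocarbon receptor, 8 of 10 of them tested, had a median slope of 0.12, with ALDH3A1 and NQO1 called. Of the 8, 3 had an unadjusted p under 0.05 in the upward direction (1.78% of all genes). In 5, both libraries at 500 µg/mL lay above both at 20 µg/mL (13.1% of all genes), CYP1A1 among them. UGT1A6, given above, is also in this list (adjusted p 0.0584). Among the other listed targets of the receptor, CYP1A1, CYP1B1, TIPARP and AHRR did not pass the test. CYP1A1, the monooxygenase that is its classical target, was near the limit of detection, at 0.634 and 0.88 CPM at 20 µg/mL, 0.487 and 0.866 CPM at 100 µg/mL, and 1.04 and 1.05 CPM at 500 µg/mL (slope 0.25 ± 0.18). CYP1B1 measured 57.7 and 50.6 CPM at 20 µg/mL and 48.7 and 51.6 CPM at 500 µg/mL (slope -0.06 ± 0.06). TIPARP, a feedback inhibitor of the receptor, had a slope of 0.05 ± 0.04 and AHRR, its repressor, 0.08 ± 0.06.

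Interferon-stimulated genes leaned the other way. Of 29 tested, 28 had a slope below 0, with a median of -0.11, and STAT2 was the exception (0.05 ± 0.05). None was called in this list, 11 had an unadjusted p under 0.05 in the downward direction (1.83% of all genes did), and in 17 both libraries at 500 µg/mL lay below both at 20 µg/mL (13.2% of all genes). OAS1, a sensor of double-stranded RNA, measured 24.4 and 22.9 CPM at 20 µg/mL, 19.3 and 20.9 CPM at 100 µg/mL, and 18.7 and 19.5 CPM at 500 µg/mL (slope -0.16 ± 0.04, adjusted p 0.828). The step between 20 and 100 µg/mL was the wider of the 2 for OAS1. IRF9, the DNA-binding subunit of the interferon-activated complex ISGF3, measured 12.4 and 10.2 CPM, 8.73 and 8.4 CPM, and 8.75 and 6.96 CPM (slope -0.27 ± 0.08, adjusted p 0.996). OAS3 had a slope of -0.11 ± 0.04, PARP9 of -0.13 ± 0.04 and ISG15, a ubiquitin-like modifier, of -0.13 ± 0.06. Without library 1 at 20 µg/mL the median of the list was -0.06 and 6 of 29 slopes were above 0, and without any other single library it lay between -0.15 and -0.10.

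The zinc genes held the only member of the 10 smallest p with a negative slope. SLC30A1 (chr1:211571568-211578742) measured 44.5 and 43.1 CPM at 20 µg/mL, 41.0 and 41.5 CPM at 100 µg/mL, and 35.8 and 37.7 CPM at 500 µg/mL, in order of dose and without overlap (slope -0.13 ± 0.03, adjusted p 0.252). Vehicle libraries measured from 38.7 to 45.4 CPM. The 5 tested metallothioneins, which bind zinc and copper, were split: slopes were -0.13 ± 0.07 for MT1E, -0.15 ± 0.08 for MT2A and -0.18 ± 0.11 for MT1X, and 0.17 ± 0.17 for MT1F and 0.15 ± 0.24 for MT1G. For the first 3 of these, both libraries at 500 µg/mL were below both at 20 µg/mL, and MT1F and MT1G had means of 0.562 and 0.516 CPM. SLC39A10, a zinc importer, had a slope of 0.11 ± 0.04 (37.7 and 42.2 CPM at 20 µg/mL, 45.6 and 47.1 CPM at 500 µg/mL). The median slope of the 8 tested genes of this list was -0.07, and it was -0.03 without library 2 at 500 µg/mL, -0.04 without library 2 at 20 µg/mL and -0.14 without library 1 at 20 µg/mL. None of the 8 passed the adjusted threshold.

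Cytosolic ribosomal proteins had small slopes: 69 of 74 were above 0, with a median of 0.04. In 22 of 74, both libraries at 500 µg/mL lay above both at 20 µg/mL (13.1% of all genes), and in 0 of 74 below (13.2%). The largest slope of the list was 0.12, 4 of 74 had an unadjusted p under 0.05 in the upward direction (1.78% of all genes) and 0 in the downward direction, and none was called. Without library 1 at 20 µg/mL the median was 0.07. In the other lists with at least 5 tested members, medians lay between -0.03 and 0.04 and no member was called. Slopes were also mostly above 0 for ribosome biogenesis (23 of 25), nuclear respiratory chain subunits (23 of 28) and small nucleolar RNA host genes (13 of 15). In 9, 3 and 5 of these, both libraries at 500 µg/mL lay above both at 20 µg/mL, and in 0 of each below. Carbohydrate response and alpha-arrestin genes leaned the other way, with 1 of 8 slopes above 0. Mitosis and G2/M genes (28 tested) had a median of 0.01 and a range from -0.03 to 0.05, and DNA replication genes (28 tested) a median of 0.005 and a range from -0.05 to 0.04. Cholesterol synthesis, the unfolded protein response, heat shock, p53-type targets and chemokines had medians of -0.0008, 0.008, 0.002, 0.009 and -0.01. The amino acid response driven by ATF4 (25 tested) had a median of 0.02, and its member with the smallest p was SLC7A11, which the NRF2 list also holds.

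**Figure D3:**
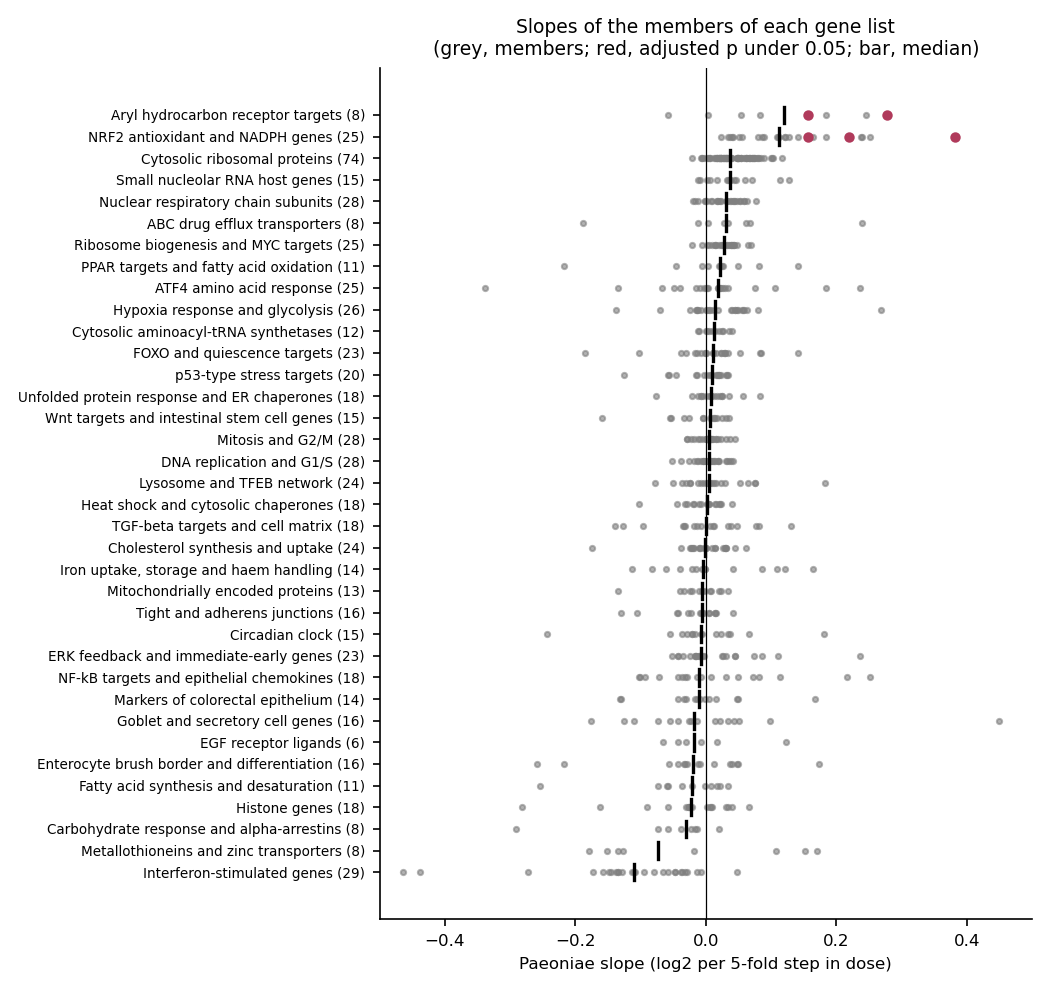
Slopes over the Paeoniae doses (horizontal axis, log2 per 5-fold step in dose) of the tested members of 36 gene lists, with the number tested in brackets (grey points, members; red points, members called; black bars, median). The bars run from -0.11 for interferon-stimulated genes to 0.12 for aryl hydrocarbon receptor targets, and 3 members beyond the axis limits of -0.5 and 0.5 are not drawn.

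The 2 genes that fell between 100 and 500 µg/mL, ENSG00000276077 (chr21:7430659-7469007) and ENSG00000277067 (chr21:7048891-7087229), are long non-coding RNAs given here by their identifiers and named after their values were seen (adjusted p 0.0499 and 0.0311 by edgeR for this step). DESeq2 did not call them in this step but called both slopes over the 3 doses as lower. In edgeR's fit of a straight line, their slopes were -1.21 ± 0.39 and -1.22 ± 0.37 (adjusted p 1.0 for both). In edgeR, both calls of the step were lost when any 1 of the libraries at 100 or 500 µg/mL was left out. ENSG00000276077 measured 1.21 and 0.953 CPM at 20 µg/mL, 1.09 and 1.25 CPM at 100 µg/mL, and 0.0373 and 0 CPM at 500 µg/mL. The values of ENSG00000277067 were the same but for 1 library at 100 µg/mL (1.05 CPM). All 3247 stretches of 100 bases of ENSG00000277067 occur in ENSG00000276077, and every stretch of either gene occurs in another gene, so reads cannot be told apart between these copies. The 3 other genes that share at least 80% of those stretches with either of them did not all go the same way. ENSG00000275496 measured 1.24 and 1.76 CPM at 20 µg/mL and 4.62 and 4.63 CPM at 500 µg/mL, and ENSG00000277991 0.276 and 0.806 CPM and then 1.97 and 1.89 CPM. ENSG00000274333 was lower at the top dose, at 9.04 and 9.46 CPM and then 6.15 and 5.71 CPM. Summed over the 5 copies, the level was 13.0 and 13.9 CPM at 20 µg/mL, 14.8 and 13.5 CPM at 100 µg/mL, and 12.8 and 12.2 CPM at 500 µg/mL. The sums at the top dose were just below those at the low dose. Under 0.1 CPM of ENSG00000276077 was also found in 1 library of Atractylodis at 100 µg/mL and 1 of Angelicae at 500 µg/mL, out of 60, and the lowest level in all remaining libraries was 0.554 CPM.

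**Figure D4:**
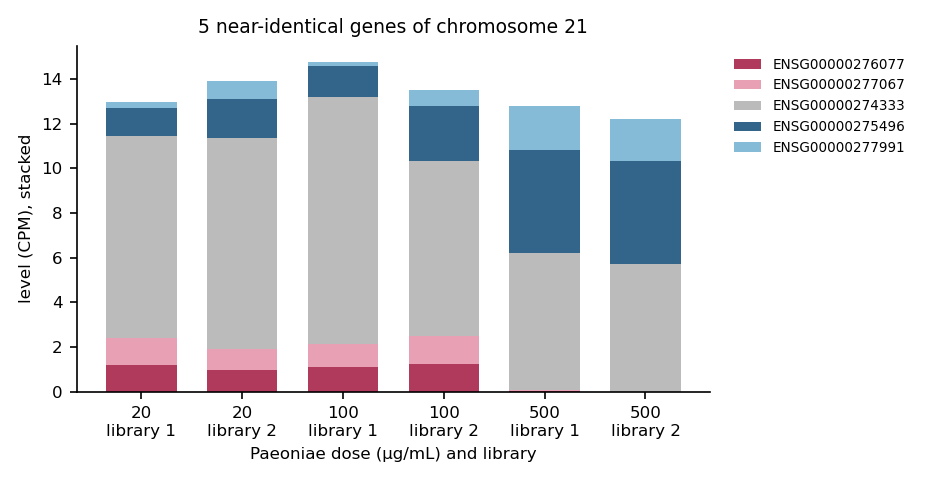
Levels of the 5 near-identical genes of chromosome 21 in the 6 Paeoniae libraries (vertical axis, stacked CPM from 0; horizontal axis, dose in µg/mL and library). The 2 genes in red shades are close to 0 at 500 µg/mL, the 2 in blue shades are higher there, the gene in grey is lower there, and the stacked total stays between 12.2 and 14.8.

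The Paeoniae slopes were set against those of the other extracts in a model with a mean for each extract and dose. Angelicae is the other extract whose sample codes begin with 4. The slope differed from that of Angelicae for 0 genes by edgeR (422 at an unadjusted p under 0.05) and 0 by DESeq2. In Angelicae itself 5 genes were called (0.03%), among them ALDH3A1 (0.18 ± 0.03) and AKR1B10 (0.19 ± 0.03). The Paeoniae slope minus that of Angelicae was 0.09 for ALDH3A1 (95% interval 0.0008 to 0.18), 0.03 for AKR1B10 (-0.06 to 0.11), 0.12 for AKR1C2 (-0.06 to 0.30) and 0.07 for NQO1 (-0.01 to 0.14). None of these 4 differences passed the adjusted threshold, and the widest interval reached 0.30.

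In Poria 1026 genes were called over the same doses (6.16%) and in Glycyrrhizae 711 (4.27%), with 3 libraries a dose, against 0 in Atractylodis (905 at an unadjusted p under 0.05) and 0 in Ginseng (708). With 2 libraries a dose in every extract, the counts were 201 in Poria, 45 in Glycyrrhizae, 2 in Angelicae, 0 in Atractylodis, 0 in Ginseng and 2 in Paeoniae. The Paeoniae slope differed from that of Poria for 28 of 16649 genes, 11 higher and 17 lower. It differed from that of Glycyrrhizae for 8, 6 higher and 2 lower. No gene differed from Atractylodis (539 at an unadjusted p under 0.05) or Ginseng (537). Among the 4 called genes, the difference passed the threshold for AKR1B10 against Poria: AKR1B10 went from 117 ± 6.13 to 260.1 ± 14.6 CPM in Poria (SD, n = 3) and from 104 ± 5.37 to 140.4 ± 2.94 CPM in Paeoniae (SD, n = 2). The difference of the slopes was -0.36 (95% interval -0.44 to -0.28, adjusted p 1.5e-06). Within the NRF2 list, GCLM and ME1 also differed from Poria. In that list 22 of 25 genes were called in Poria (median slope 0.25), 8 in Glycyrrhizae (0.11), 3 in Paeoniae (0.11), 2 in Angelicae (0.09), 0 in Ginseng (0.03) and 0 in Atractylodis (0.02). No gene of this list differed between Paeoniae and Glycyrrhizae, where 8 of all 16649 genes did, so this is no sign of likeness. SLC30A1 also differed from Poria (-0.20, 95% interval -0.28 to -0.12, adjusted p 0.0153), where its slope was 0.07 ± 0.02.

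Against Atractylodis and Ginseng, the slopes of the 4 genes were higher in Paeoniae by 0.20 and 0.15 for ALDH3A1, 0.14 and 0.11 for AKR1B10, 0.31 and 0.30 for AKR1C2, and 0.11 and 0.13 for NQO1. None of these 8 differences passed the adjusted threshold. Each unadjusted 95% interval lay above 0, but the 4 genes were chosen by their slope in Paeoniae. That choice tilts these differences, and those from Angelicae, upward, so the intervals are no support for a difference. For the interferon list the median slope was -0.11 in Paeoniae, -0.10 in Glycyrrhizae and -0.05 in Poria. It was -0.04 in Atractylodis and -0.02 in both Ginseng and Angelicae. In Glycyrrhizae 8 of 29 were called lower (2.12% of all genes) and in Poria 2 of 29 (2.44%). No member differed between Paeoniae and another extract. Of all 16649 genes, 28 differed from Poria, 8 from Glycyrrhizae and 0 from each other extract, so this is no sign of likeness.

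**Figure D5:**
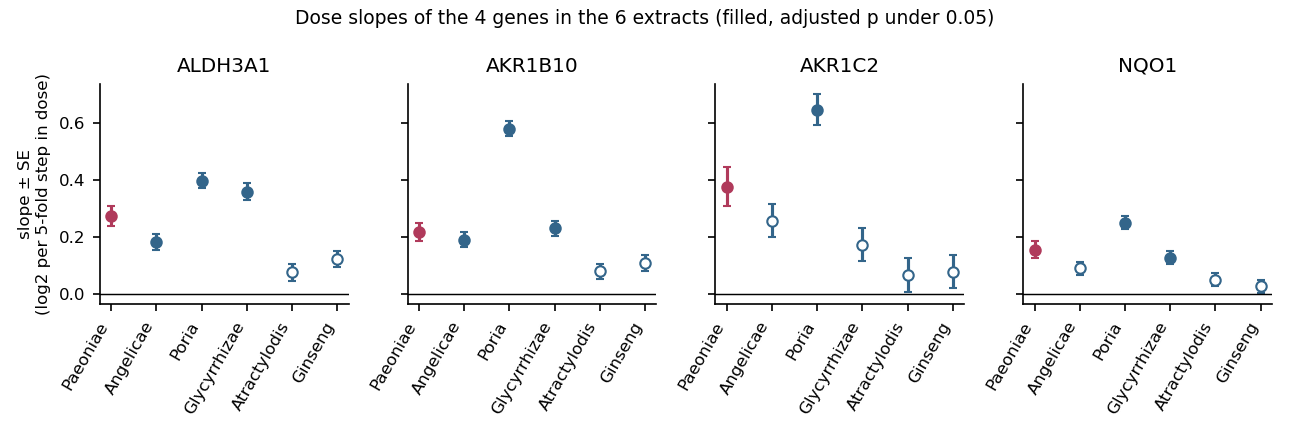
Dose slopes of ALDH3A1, AKR1B10, AKR1C2 and NQO1 (vertical axis, log2 per 5-fold step in dose, ± SE) in Paeoniae (red) and 5 other extracts (blue), with filled points for an adjusted p under 0.05. All slopes are above 0, those of Poria are the highest for each gene, and the largest gap between Paeoniae and Poria is that of AKR1B10 (0.22 against 0.58).

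Promoter sequence was searched for 5 short motifs, on both strands, in the 250 bases before the start of each gene (RefSeq, GRCh38.p14). They were TGACNNNGC (antioxidant response element core, in 10.9% of 35116 windows), GCGTG (aryl hydrocarbon receptor core, 32.2%), ACGTG (hypoxia and E-box core, which shares its last letters with the former, 18.5%), TGCNCNC (metal response element core, 49.1%) and TTGCNTCA (amino acid response element core, 2.77%). Of the 4 called genes, AKR1C2 and NQO1 had a window in that table, and neither window held any of the 5, which says only that these letters are not in these 250 bases. Of the uncalled genes given above by their small p, UGT1A6 and SLC30A1 had a window. That of UGT1A6 held GCGTG and TGCNCNC, each at 1 place. That of SLC30A1 held GCGTG at 3 places and TGACNNNGC and TGCNCNC at 1 each. A match is a description of the letters and no evidence of binding.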

How the data were processed

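Messenger RNA of HT29 cells was sequenced in 60 libraries, 6 of them Paeoniae. Per the submitters' processing notes, the authors used FastQC 0.11.9, Trim Galore 0.6.5, STAR 2.7.3a and RSEM 1.3.3 with GRCh38 (hg38). Which gene annotation and strand setting the authors gave to RSEM is not stated in what was used here. The deposited table lists, by Ensembl gene, expected counts from RSEM without normalisation; 24.2% of values above 0 were not whole. Of 273 columns, 60 were used and 213 were not. Gene symbols came with 56558 of 60675 genes, and GENCODE 29 coordinates with 57055.

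Expected counts were rounded, filtered in edgeR 4.0.16 (filterByExpr, at least 10 counts and 15 in total; 16649 genes left) and scaled by TMM. One quasi-likelihood model was fitted to the 51 extract libraries, with an intercept and a linear term in log dose (coded -1, 0 and 1) for Paeoniae and a mean for each of the 15 other extract and dose groups (34 residual degrees of freedom). The slope thus used the 6 Paeoniae libraries, and the other 45 shared the estimate of the spread. Curvature, steps and differences between extracts came from a model with 18 group means. The written design counted these libraries as 54 and 48, a miscount with no effect on the fit. The Benjamini-Hochberg adjustment ran over all genes tested. SE is the slope divided by the square root of the F statistic. Levels are CPM with TMM factors, and they compare libraries, not genes of different length. Alternatives were DESeq2 1.42.0, its size factors, no filter, other sets of libraries, leaving out each library and a replicate block. The fit was tested on simulated data. Median counting spread was checked between replicates, and no pair looked like a library deposited again.

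Genes were named by a written rule: called genes with a mean of at least 5 CPM and no overlap of the 500 and 20 µg/mL libraries, up to 4 called members of each of 41 lists, and, with fewer than 6 genes called, the 10 with the smallest p. Other list members were named as examples after their values were seen. Some genes that the rule names are not reported here. The members and lists were chosen with earlier results of these data known, so list counts are descriptions.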

Additional observations from a re-analysis of the deposited data

Results flagged for a closer look

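The Paeoniae slope of AKR1B10 was flagged because it differed from that of Poria in a test of the difference itself (-0.36 log2 units per 5-fold step in dose, adjusted p 1.5e-06 by edgeR). The level rose with dose in both extracts, and both libraries at 500 µg/mL of Paeoniae, at 138 and 143 CPM, were below the 245.6 to 274.7 CPM of Poria. Libraries of Poria have sample codes that begin with 2 and those of Paeoniae codes that begin with 4, which cannot be told apart from the extract, although each slope stays within its own code number.

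The slope of SLC30A1 differed from that of Poria as well (-0.20, adjusted p 0.0153). It was -0.13 ± 0.03 (SE) in Paeoniae and 0.07 ± 0.02 in Poria, and neither slope passed the adjusted threshold by itself.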

How the results depend on the processing

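The slopes of the 10 genes with the smallest p kept their sign under each of the 14 alternatives run. The medians of the NRF2, aryl hydrocarbon receptor, interferon, ribosomal protein and zinc lists did so under each of 13. The 10 genes were chosen by their p in these same libraries, and the alternatives other than omissions hardly move a slope. A kept sign is therefore a description and no support. The counts of called genes did not all hold. With no filter on low counts, which tested 33749 genes, 90 slopes, 65 curvatures, 56 differences of 100 against 20 µg/mL, 83 of 500 against 100 µg/mL and 67 differences from the Angelicae slope were called. The DESeq2 Wald test called 9 slopes. The 6 Paeoniae libraries alone gave 1 slope (ENSG00000257411) and 1 curvature. When each library was left out in turn, the counts ranged from 0 to 6 for the slope, 0 to 1 for curvature, 0 to 1 for 100 against 20 µg/mL (the 1 without library 2 at 100 µg/mL), 1 to 5 for 500 against 100 µg/mL, and 0 to 1 for the difference from Angelicae (the 1 without library 2 of Paeoniae at 500 µg/mL). The sign turned in 2 differences near 0: AKR1B10 against Glycyrrhizae ranged from -0.038 to 0.015 (-0.01 with all libraries), being above 0 without library 1 at 20 µg/mL, and NQO1 against Glycyrrhizae from -0.012 to 0.072 (0.03 with all), being below 0 without library 2 at 20 µg/mL. The cause was not tested for any of these.

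A replicate block, with the replicate number taken within each code number, gave 11 slopes (among them the 4 and ANXA1, EPHB6, GCLC, SLC7A11, UGT1A6 and UGT1A10) and 7 differences of 500 against 100 µg/mL. Residuals of same-numbered Paeoniae libraries correlated at -0.0654, -0.034 and 0.126 for 20 with 100, 20 with 500 and 100 with 500 µg/mL. The main model did not pair libraries by number. The block lowered the common coefficient of variation of the 51 libraries from 0.0535 to 0.0419. Between 100 and 500 µg/mL, same-numbered libraries differed by a median of 0.0558 and 0.0612 log2 units, the others by 0.0747 and 0.0891. Pairs with 20 µg/mL overlapped: 0.0624, 0.0886, 0.0718 and 0.088 for the same number, 0.0698, 0.0772, 0.0674 and 0.0725 otherwise. Whether same-numbered libraries belong together was not settled here. With 2 libraries a dose, depth limited the genes under 5 CPM most: the upper quartile of the SE was 0.133 over all genes and 0.0510 over those with at least 5 CPM.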
